A study of Mus musculus with 48 samples.

Results

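Amino acid transporters are membrane proteins that move amino acids into and out of cells. The 10 transporter genes described here were Slc7a5, Slc3a2, Slc7a11, Slc43a1, Slc7a1, Slc38a1, Slc38a2, Slc1a5, Slc1a4 and Slc6a9, taken by gene symbol from the 55487 genes of the count table. All 10 were found once each, and all 10 passed the filter on low counts in RNA and in ribosome footprints. The study measured poly(A)-selected RNA and ribosome footprints in Ba/F3 cells, a mouse haematopoietic cell line usually described as pro-B that grows only with interleukin 3. There were 24 edited or control clones, 3 for each of 8 genotypes, and each clone gave 1 RNA library and 1 footprint library from a divided lysate.

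The groups were wild type (WT), Rpl5+/-, Rpl11+/-, Rpl22+/-, Rpl22-/-, Rpl10 R98S (R98S/R98S in the genotype labels), Rps15 P131S (P131S/P131S) and Rps15 H137Y (H137Y/H137Y). Titles of the P131S RNA libraries read P131S alone, whereas those of the footprint libraries read P131S/P131S. Rpl5, Rpl11, Rpl22 and Rpl10 encode proteins of the large ribosomal subunit, and Rps15 one of the small subunit. The mutants were CRISPR-Cas9 clones. Cells of every group, WT included, grew in 10% fetal calf serum with 1 ng/ml interleukin 3 and were given 0.1 mg/ml cycloheximide for 1 min before harvest. The replicates are clones, so p-values measure the spread between clones of 1 cell line.

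Transporters of this set work by several mechanisms. Slc3a2 encodes the heavy chain 4F2hc, which carries light chains such as those of Slc7a5 (large neutral amino acids) and Slc7a11 (cystine in exchange for glutamate) to the plasma membrane, while the Slc38 and Slc1 members move small neutral amino acids such as glutamine, alanine and serine together with sodium. Transcription of several of these genes is known to rise through the transcription factor ATF4 when cells lack amino acids, and ATF4 with a C/EBP partner binds a composite element with the core TGATGNAA.

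Promoter sequence was looked at because several members moved together in RNA. RefSeq windows of GRCm38.p6, from 250 bases before to 50 bases after a transcription start, were matched by symbol for 7 of the 10 members, with 10 windows in all. No window was matched for Slc7a5, Slc38a1 and Slc1a5. Both strands were searched for TGATGNAA, for the E-box CACGTG bound by Myc and Max, and for TGACNNNGC, the core of the antioxidant response element bound by Nrf2. The 3 motifs do not share bases in the stretches below. The 4 stretches show the windows that hold the ATF4-type core, and those of 2 members that lack it and carry another motif. Each is given 5′ to 3′ on the gene's strand, with the matched bases in capitals.
Slc7a11, chr3:50443634-50443713, minus strand, bases -100 to -21: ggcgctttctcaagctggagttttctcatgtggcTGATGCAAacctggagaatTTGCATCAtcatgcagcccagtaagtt
Slc1a4, chr11:20332710-20332789, minus strand, bases -76 to 4: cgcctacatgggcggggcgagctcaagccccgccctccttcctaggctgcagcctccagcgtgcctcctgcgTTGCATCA
Slc38a2, chr15:96699729-96699808, minus strand, bases -80 to -1: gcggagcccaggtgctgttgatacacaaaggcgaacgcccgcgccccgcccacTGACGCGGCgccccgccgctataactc
Slc43a1, chr2:84840243-84840322, plus strand, bases -80 to -1: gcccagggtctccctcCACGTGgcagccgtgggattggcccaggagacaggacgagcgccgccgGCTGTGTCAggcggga

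Slc7a11 held TGATGNAA on both strands, at -66 to -59 and, reversed, at -47 to -40, and Slc1a4 held it once, reversed, at -4 to 4 across the start. This core was in 3.97% of all 32851 windows of the same length. CACGTG, found in 7.15% of windows, was present in the Slc43a1 window alone among the members. TGACNNNGC, found in 12.4% of windows, was present in Slc38a2, Slc43a1, 2 of 3 windows of Slc6a9 and 1 of 2 windows of Slc7a1. These matches describe letters in a window and were not tested as binding sites.

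RNA libraries held 13029073 to 38258559 estimated counts and footprint libraries 15598994 to 72044439. Levels below are CPM, counts scaled to the size of the library, and are compared for 1 gene between genotypes, never between genes, because they are not corrected for gene length. The lowest count of any member was 172 in RNA and 161 in footprints, both for Slc6a9. Rpl5 RNA was at 1534 to 1589 CPM in Rpl5+/- clones against 2283 to 2338 in WT, and Rpl11 RNA at 1008 to 1150 in Rpl11+/- clones against 1665 to 1686. Rpl22 footprints were at 2350 to 2786 CPM in WT and 1429 to 1596 in Rpl22+/-. In Rpl22-/- they were at 274.1 and 316.6 in clones 649 and 776 but at 1544 in clone 30, within the heterozygous range, so the library labelled Rpl22-/- clone 30 did not match its group. Without it, 1 member was called in RNA against WT, as with it (2.66% of all genes called), and 0 in footprints (0.0468%) and in translational efficiency (0.0161%), by edgeR, with 2, 1 and 1 members at an unadjusted p under 0.05. Amino acid exchanges in Rpl10 and Rps15 cannot be read from counts. Rps15 RNA split the Rps15 clones: it was at 817.4 and 874.7 CPM in H137Y clones 6 and 2 and at 906.7 in P131S clone 24, against 1433 to 1455 in WT, and at 1829 in H137Y clone 16 and 1825 and 1935 in P131S clones 63 and 20. The part of this split in the transporter results was not tested. Of 12 B-lineage markers, 9 or 10 were under 1 CPM in each genotype (among them Pax5, Ebf1, Rag1 and Il7r). Ptprc, at 167 to 302 CPM, and Cd79b, at 3.34 to 9.91, were present in every library, and Cd79a reached 9.81. Most of the listed lineage genes thus did not bear out the pro-B description of the line. Of 6 markers of interleukin 3 dependent cells, the receptor gene Il3ra was at 25.6 to 35.1 CPM. Csf2rb (450 to 1720), Csf2rb2 (369 to 1090) and Spi1 (58.2 to 119) were present too. Kit was at 0 CPM in all libraries and Cd34 at no more than 0.029.

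In both Rps15 genotypes, RNA and footprints of Slc3a2, Slc38a2, Slc1a4 and Slc6a9 fell, against a background in which far more of all genes were called than in the large-subunit genotypes. In Rps15 H137Y, 6 members were lower and 1 was higher in RNA, and in Rps15 P131S 5 were lower and none was higher. Called means an adjusted p under 0.05 in edgeR's quasi-likelihood test with Benjamini-Hochberg adjustment over all genes. Of all 12814 genes tested in RNA, 41.0% were called in H137Y and 47.0% in P131S, so the share of members called in P131S was close to that of all genes and the counts are not read as a result about the members. By direction, 20.0% of all genes were called lower and 21.0% higher in H137Y, and 23.4% were called lower in P131S. The median log2 change of the 10 members was -0.77 in H137Y and -0.48 in P131S, against 0.01 and -0.01 over all genes. Scaling by library totals alone reversed the direction of no called member in RNA, but it lowered the median of all genes in RNA to -0.11 in H137Y and -0.18 in P131S and moved the share of higher calls from 51.3% to 32.2% and from 50.3% to 26.7%.

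In footprints, 5 members were lower and 1 higher in H137Y, where 11.7% of 16217 genes were called, 6.44% lower and 5.22% higher. In P131S 4 were lower and 1 higher, where 16.7% were called, 8.28% lower and 8.42% higher. Median log2 changes of the members in footprints were -0.63 and -0.31, against 0.00 and -0.04 over all genes. With library totals the all-gene median was -0.24 in P131S footprints and -0.09 in those of H137Y, and the share of higher calls went from 50.4% to 22.3% and from 44.8% to 30.1%.

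Large-subunit genotypes showed fewer changes. RNA calls numbered 3 in Rpl11+/-, with 2 lower and 1 higher, where 11.8% of all genes were called, 6.05% lower and 5.73% higher. They also numbered 3 in Rpl10 R98S, with 2 lower and 1 higher, where 12.9% of genes were called, 6.03% lower and 6.82% higher. There was 1 lower call in Rpl22+/- (3.9% of genes called, 2.82% lower) and 1 lower call in Rpl22-/- (5.27% called, 3.8% lower). In Rpl5+/- there were 0, where 1.04% of genes were called. With library totals the share of higher calls over all genes went from 48.6% to 19.2% in Rpl11+/-, from 53.1% to 35.2% in Rpl10 R98S, from 27.8% to 14% in Rpl22+/-, from 27.9% to 12% in Rpl22-/- and from 60.2% to 11.3% in Rpl5+/-. For Rpl5+/- edgeR gave 2 members at an unadjusted p under 0.05, and DESeq2 and limma voom also called 0. In footprints edgeR called 0 members in each of these 5 genotypes. The share of all genes called there was 0.0123% for Rpl5+/-, 0.074% for Rpl11+/-, 0.253% for Rpl22+/-, 0.105% for Rpl22-/- and 1.62% for Rpl10 R98S. At an unadjusted p under 0.05 there were 1, 5, 1, 0 and 1 members in the same order, and DESeq2 and limma voom each called 1 in Rpl11+/-, 1 in Rpl10 R98S and 0 in the other 3.

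**Figure D1:**
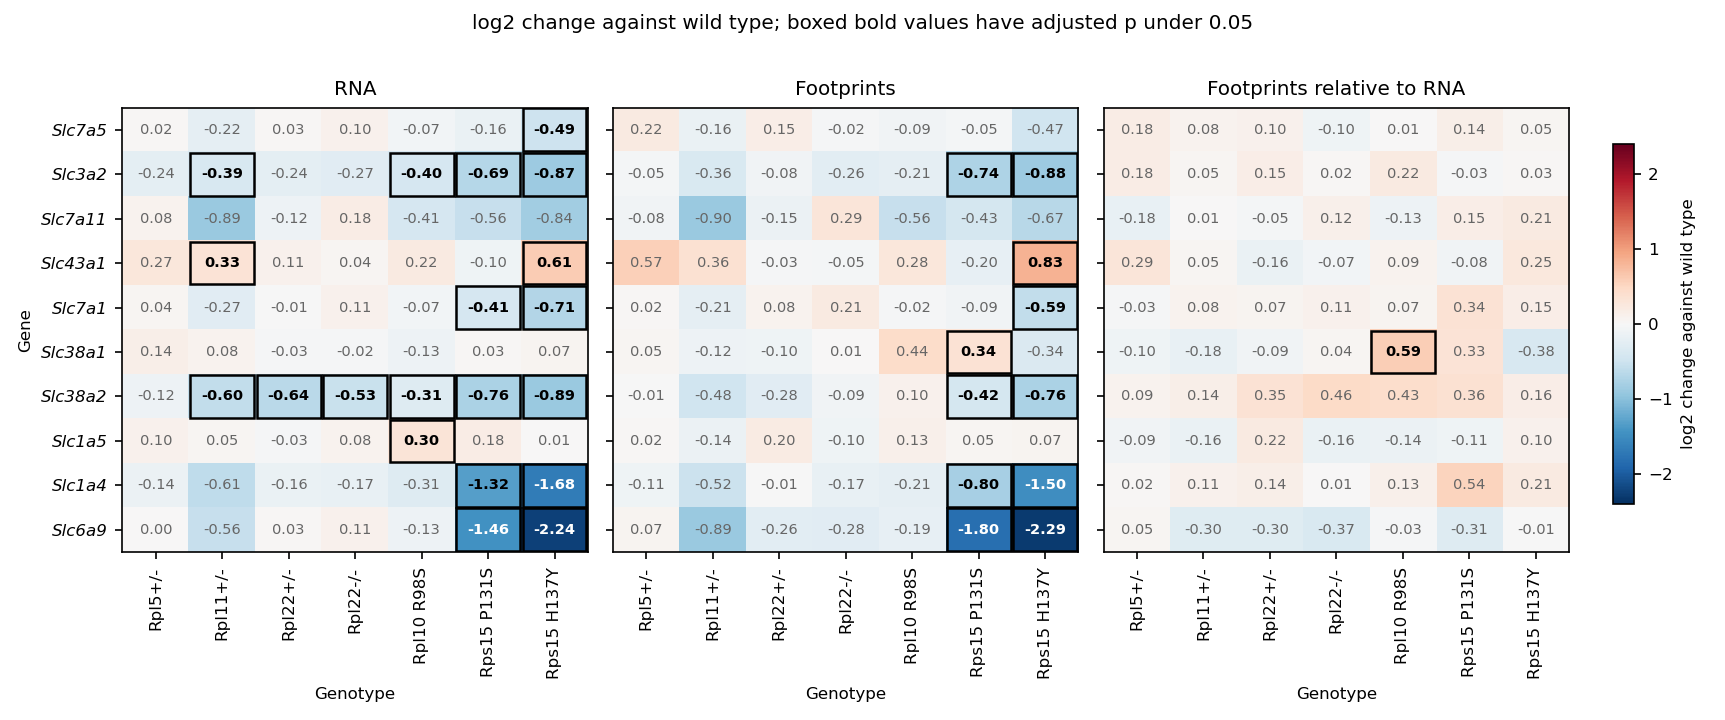
Log2 change against WT (colour and printed value) of the 10 transporter genes (rows) in 7 mutant genotypes (columns), in RNA, in footprints and in footprints relative to RNA. Boxed bold values have an adjusted p under 0.05. Boxes in the RNA panel cluster in the 2 Rps15 columns and along the Slc38a2 row, and 1 box is present in the panel of footprints relative to RNA.

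Slc3a2 (chromosome 19, 8706882 to 8723369), the shared heavy chain, was called lower in 4 of 7 mutant genotypes in RNA and in 2 of 7 in footprints. In the other 3, Rpl5+/- (285.4, 317.9 and 303.6 CPM), Rpl22+/- (293.6, 319.0 and 290.3) and Rpl22-/- (304.2, 287.5 and 295.4), all clones were below WT too, with log2 changes of -0.24, -0.24 and -0.27 that were not called (adjusted p 0.221, 0.18 and 0.106) but passed when the groups compared were fitted alone. Its RNA was at 360.4, 343.3 and 365.6 CPM in the WT clones, 222.9, 220.0 and 220.3 in P131S and 201.3, 182.6 and 199.5 in H137Y. All 6 Rps15 clones lay below all WT clones, and the P131S clones spanned under 3 CPM. The log2 change in RNA was -0.69 in P131S (adjusted p 7.21e-06, SE 0.09) and -0.87 in H137Y (adjusted p 5.46e-07, SE 0.09, edgeR). Footprints moved by nearly the same amounts, -0.74 (adjusted p 0.00055, SE 0.13) and -0.88 (adjusted p 0.000183, SE 0.13). Slc3a2 RNA also fell in Rpl10 R98S, where the clones stood at 263.1, 266.8 and 279.2 CPM (log2 change -0.40, adjusted p 0.00755, SE 0.09), and in Rpl11+/-, where they stood at 245.2, 338.2 and 230.3 (-0.39, adjusted p 0.00953, SE 0.09). The Rpl11+/- call was lost without clone 406 or clone 22, with log2 changes from -0.58 to -0.29 over the fits that left out 1 clone.

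Slc7a5 (chromosome 8, 121881146 to 121907686), the light chain for leucine and other large neutral amino acids, moved less than its heavy chain. WT clones had 434.6, 451.2 and 444.8 CPM of RNA, P131S clones 354.1, 362.8 and 471.3, and H137Y clones 302.6, 361.8 and 281.7. P131S overlapped WT through clone 20, and H137Y did not overlap it. The change in H137Y RNA was -0.49 (adjusted p 0.0186, SE 0.16) and was lost without clone 16 or clone 2, when it was between -0.60 and -0.42 over all such fits. In H137Y footprints the log2 change of -0.47 missed the threshold (adjusted p 0.0597, SE 0.16), although the 3 clones, at 201.7, 184.3 and 200.1 CPM, were below the WT clones at 312.5, 247.3 and 254.8. DESeq2 called this change (adjusted p 0.0449). So did edgeR with library totals (0.0255), no filter on low counts (0.00895) and only the groups compared (0.0352).

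Slc7a11 (chromosome 3, 50364936 to 50499087), the cystine and glutamate exchanger, varied widely between clones of 1 genotype. Its RNA was at 40.70, 40.26 and 29.74 CPM in WT, 21.55, 28.07 and 25.39 in P131S and 16.13, 35.02 and 10.72 in H137Y. It was called in no mutant genotype at any level by the main edgeR fit, and by limma voom in H137Y RNA (-0.99, adjusted p 0.0292) and footprints (-0.99, adjusted p 0.0493). By edgeR with library totals, Slc7a11 was called in H137Y RNA (-0.98, adjusted p 0.0377). With only the groups compared, edgeR called it in P131S RNA (-0.56, adjusted p 0.0192) and Rpl10 R98S footprints (-0.56, adjusted p 0.0325). One H137Y clone, clone 6, was above the lowest WT clone, and its footprints, at 49.85 CPM against 17.26 and 16.85 in clones 16 and 2, were above all WT clones (38.31 to 48.59). Without clone 6 the H137Y change in Slc7a11 RNA was -1.45 (adjusted p 0.00471) instead of -0.84 (adjusted p 0.0893), and that in footprints -1.37 (adjusted p 0.0133) instead of -0.67 (adjusted p 0.278).

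Slc43a1 (chromosome 2, 84838855 to 84863586), a sodium-independent carrier of branched-chain and other large neutral amino acids, was the member that rose in H137Y. RNA was at 16.13, 16.84 and 21.13 CPM in WT and 28.74, 25.86 and 27.72 in H137Y, with no overlap (log2 change 0.61, adjusted p 0.000119, SE 0.11). Footprints rose from 11.82, 12.11 and 12.52 CPM to 19.69, 19.29 and 25.55 (0.83, adjusted p 0.00494, SE 0.18). All clones also lay above WT in footprints in Rpl5+/- (15.26 to 22.32 CPM), Rpl11+/- (14.58 to 16.62) and Rpl10 R98S (13.81 to 15.37), without a call. Footprints of Rpl22+/-, Rpl22-/- and P131S overlapped WT. In P131S the clones, at 15.78, 17.14 and 17.49 CPM of RNA, lay within or just below the WT values (-0.10, adjusted p 0.456). Rpl11+/- clones had 22.41, 20.74 and 24.96 CPM of RNA, overlapping WT (0.33, adjusted p 0.0446, SE 0.11), a call lost in 4 of 6 fits that left out 1 clone (0.26 to 0.46).

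Slc7a1 (chromosome 5, 148327410 to 148399904), the carrier of cationic amino acids such as arginine and lysine, was lower in RNA in both Rps15 genotypes but in footprints only the H137Y change passed the threshold. WT clones had 267.1, 260.3 and 277.0 CPM of RNA, P131S clones 195.5, 179.8 and 229.0, and H137Y clones 152.1, 191.1 and 149.5. The RNA change was -0.41 in P131S (adjusted p 0.00196, SE 0.10) and -0.71 in H137Y (adjusted p 1.36e-05, SE 0.10). Footprints in H137Y were at 265.5, 256.5 and 276.3 CPM against 387.7, 393.2 and 417.3 in WT (-0.59, adjusted p 0.00435, SE 0.12). In P131S they were at 333.1, 335.5 and 455.2, with clone 20 above every WT clone and the others below (-0.09, adjusted p 0.692, SE 0.12).

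**Figure D2:**
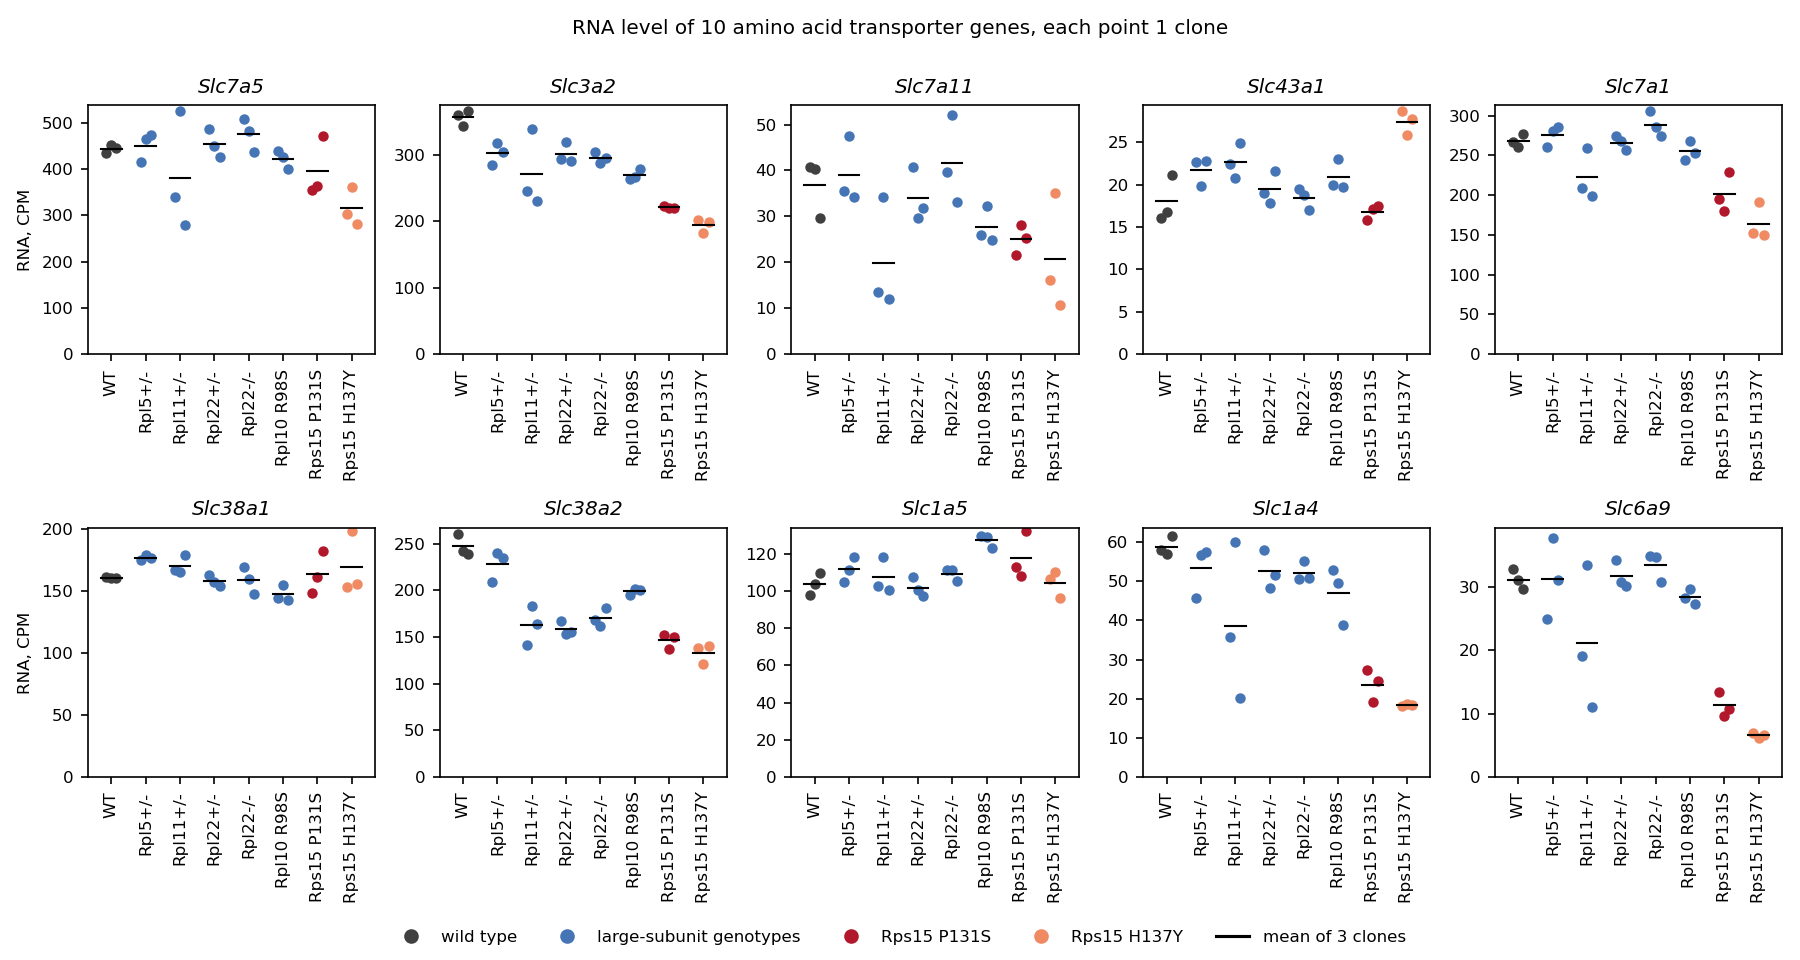
RNA level in CPM (vertical axis from 0, a separate scale for each gene) of the 10 genes in 8 genotypes, each point 1 clone and each line the mean of 3 clones. Slc1a4 and Slc6a9 are low in all 6 Rps15 clones, Slc43a1 is high in the 3 H137Y clones, and 1 Rpl11+/- clone stands above the other 2 in Slc7a11, Slc1a4 and Slc6a9.

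Slc38a2 (chromosome 15, 96687392 to 96699728), the sodium-coupled neutral amino acid transporter known for its induction in amino acid starvation, was called lower in RNA in 6 of the 7 mutants, all but Rpl5+/-. WT clones had 260.0, 242.1 and 239.0 CPM, P131S clones 151.7, 137.3 and 149.7, and H137Y clones 137.9, 121.2 and 139.8. In the large-subunit genotypes, RNA was at 141.9, 183.6 and 163.9 CPM in Rpl11+/-, 167.1, 153.0 and 155.3 in Rpl22+/-, 168.7, 161.9 and 181.4 in Rpl22-/- and 195.0, 201.6 and 200.8 in Rpl10 R98S. Every one of these 18 clones lay below the lowest WT clone, whereas Rpl5+/- clones, at 209.4, 240.4 and 234.3, overlapped WT.

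The log2 changes of Slc38a2 RNA were -0.89 in H137Y (adjusted p 5.85e-08, SE 0.08), -0.76 in P131S (adjusted p 5.16e-07, SE 0.08), -0.64 in Rpl22+/- (adjusted p 6.08e-05, SE 0.08), -0.60 in Rpl11+/- (adjusted p 0.000157, SE 0.08), -0.53 in Rpl22-/- (adjusted p 0.000347, SE 0.08) and -0.31 in Rpl10 R98S (adjusted p 0.015, SE 0.08). Without Rpl22-/- clone 30 the Rpl22-/- value was -0.50 (adjusted p 0.00421). The Rpl10 R98S call was lost without WT clone 3 or clone A30 (-0.33 to -0.27 over all such fits). Footprints of Slc38a2 changed less. They were at 803.9, 770.0 and 865.9 CPM in WT, 667.6, 566.3 and 591.9 in P131S and 486.1, 476.7 and 475.7 in H137Y, and fell by 0.42 (adjusted p 0.00807, SE 0.10) and 0.76 (adjusted p 0.00011, SE 0.10). The P131S footprint call was lost without WT clone 1 or P131S clone 63 (-0.46 to -0.34). In Rpl11+/-, footprints stood at 545.0, 689.4 and 512.7 CPM, all below WT, with a change of -0.48 that edgeR did not call (adjusted p 0.0872) and that DESeq2 (adjusted p 0.00187) and limma voom (0.0358) did. In Rpl22+/- they stood at 736.5, 681.0 and 587.9, all below WT and not called (-0.28, adjusted p 0.249). In Rpl22-/- they were at 785.3, 747.5 and 758.5, overlapping WT (-0.09, and -0.07 without clone 30), and in Rpl10 R98S at 835.4, 893.9 and 880.6 (0.10), neither called.

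Slc38a1 (chromosome 15, 96571418 to 96643438), the related glutamine transporter of the same family, kept its RNA near WT everywhere: log2 changes ran from -0.13 to 0.14 over the 7 mutants and none was called. WT clones were at 161.7, 160.6 and 160.5 CPM, P131S clones at 148.7, 161.4 and 182.3, and H137Y clones at 153.6, 198.2 and 155.3. All Rpl10 R98S clones (142.5 to 154.9) lay below WT, and all Rpl5+/- (175.4 to 179.3) and Rpl11+/- clones (165.1 to 179.4) above. With only the groups compared, edgeR called Rpl10 R98S (-0.12, adjusted p 0.0415) and Rpl5+/- (0.14, adjusted p 0.024). Its footprints in P131S were at 330.8, 356.2 and 485.1 CPM against 308.4, 304.7 and 313.3 in WT, an increase of 0.34 (adjusted p 0.0457, SE 0.11) that was lost in 4 of 6 fits without 1 clone and under 4 of 7 other settings, namely limma voom, library totals, no filter on low counts and only the groups compared. Without P131S clone 20, the highest, the change was 0.15. In H137Y all clones were below WT, at 250.6, 227.2 and 254.1, without passing the threshold (-0.34, adjusted p 0.0573, SE 0.11). DESeq2 called this change (adjusted p 0.0498), as did edgeR with library totals (0.0101) and with only the groups compared (0.0451).

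Slc1a5 (chromosome 7, 16781334 to 16798274), the sodium-dependent glutamine exchanger, was called in 1 genotype, Rpl10 R98S, where its RNA rose. There its clones had 129.7, 129.2 and 123.1 CPM against 97.56, 103.9 and 109.8 in WT (log2 change 0.30, adjusted p 0.0173, SE 0.08), a call lost in 4 of 6 fits without 1 clone (0.25 to 0.34). In H137Y it had 106.3, 110.4 and 96.30 CPM (0.01, adjusted p 0.948), and in P131S 112.9, 107.9 and 132.1 (0.18, adjusted p 0.0645). Its footprints were called in no genotype, with log2 changes of 0.05 in P131S (SE 0.13) and 0.07 in H137Y (SE 0.13).

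Slc1a4 (chromosome 11, 20302180 to 20332713), a sodium-dependent exchanger of alanine, serine and cysteine from the same family as Slc1a5, fell in RNA and in footprints in both Rps15 genotypes. WT clones had 57.95, 57.03 and 61.51 CPM, P131S clones 27.28, 19.12 and 24.42, and H137Y clones 18.13, 18.61 and 18.43. Mean RNA was at 40.2% of WT in P131S (log2 change -1.32, adjusted p 0.0003, SE 0.25) and at 31.3% in H137Y (-1.68, adjusted p 4.51e-05, SE 0.25). Footprints were at 65.62, 38.20 and 48.35 CPM in P131S and 30.22, 27.84 and 35.62 in H137Y, against 93.66, 84.98 and 86.20 in WT. They were lower by -0.80 (adjusted p 0.0183, SE 0.23) and -1.50 (adjusted p 0.000326, SE 0.23) on the log2 scale. The P131S footprint call was lost in 4 of 6 fits without 1 clone (-1.0 to -0.60), and that in H137Y in none.

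Slc6a9 (chromosome 4, 117835258 to 117869305), the sodium- and chloride-coupled glycine transporter, had the largest change of the 10 members. Its RNA was at 32.75, 31.02 and 29.64 CPM in WT, 13.47, 9.66 and 10.74 in P131S and 6.874, 6.181 and 6.631 in H137Y. The 3 genotypes did not overlap one another. RNA stood at 36.3% of WT in P131S (log2 change -1.46, adjusted p 0.000112, SE 0.25) and at 21.1% in H137Y (-2.24, adjusted p 2.96e-06, SE 0.26). Footprints went from 26.26, 23.68 and 27.26 CPM in WT to 10.20, 6.633 and 5.397 in P131S (-1.80, adjusted p 0.00654, SE 0.43) and to 5.355, 6.082 and 4.378 in H137Y (-2.29, adjusted p 0.00201, SE 0.44). These 4 calls held in all fits that left out 1 clone.

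**Figure D3:**
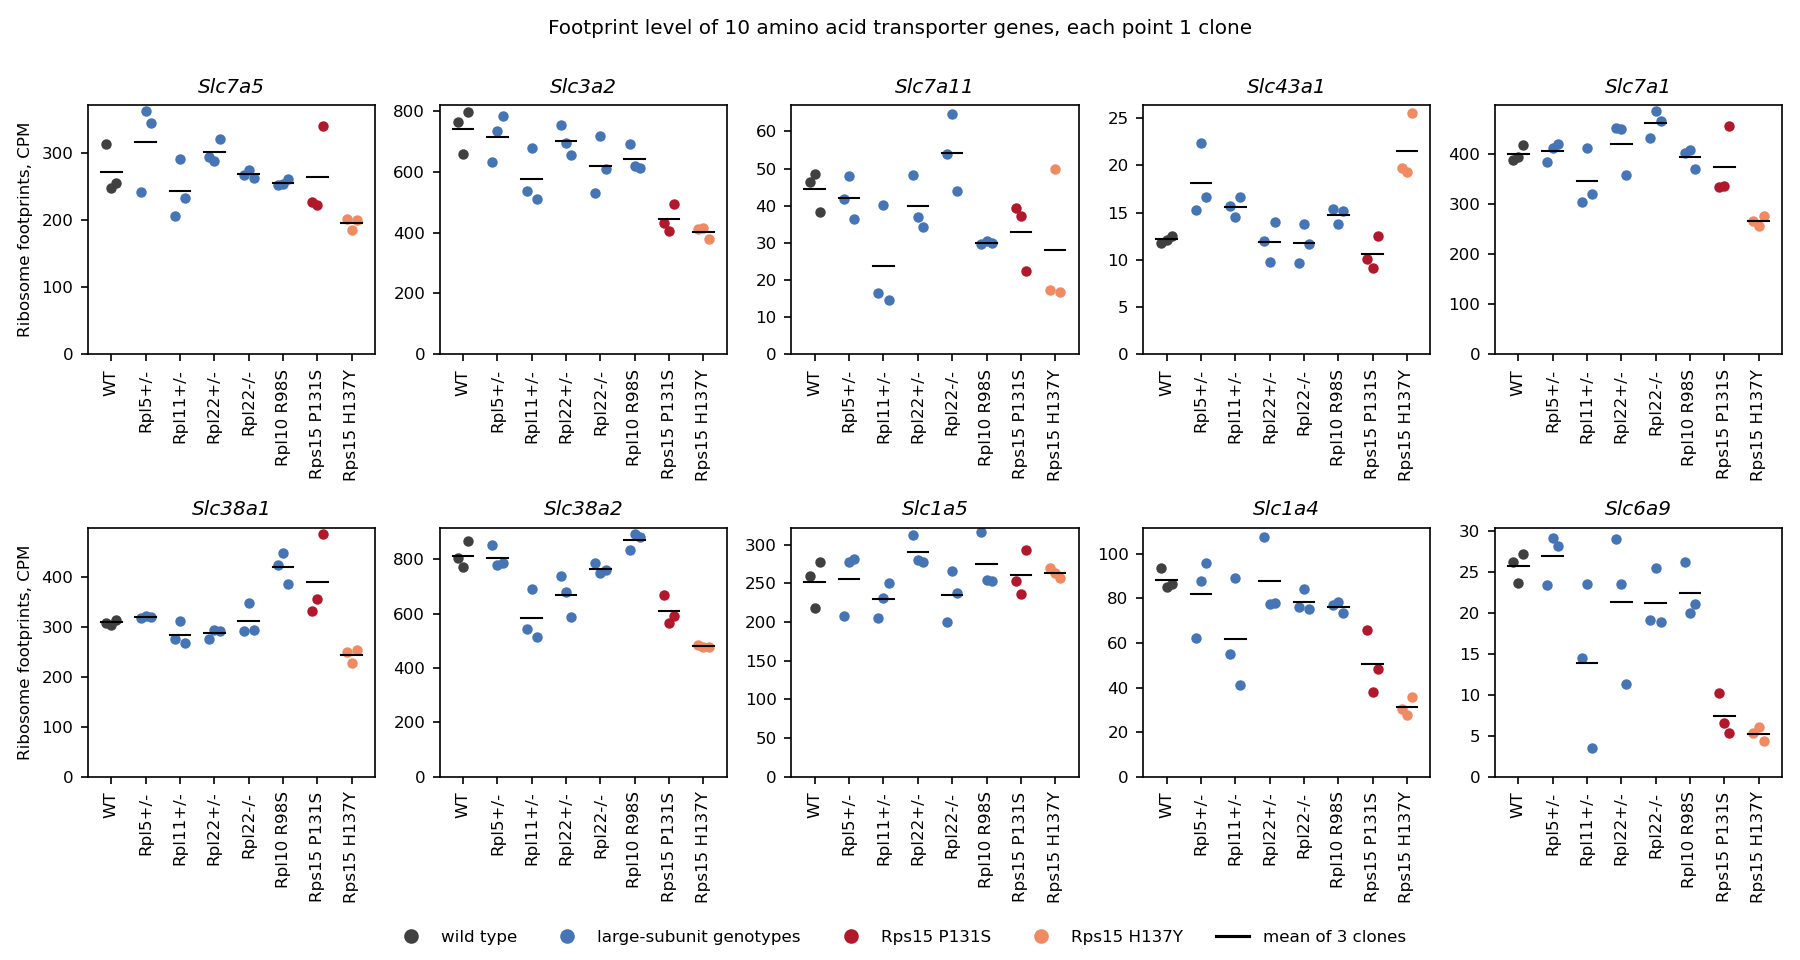
Footprint level in CPM (vertical axis from 0, a separate scale for each gene) of the 10 genes in 8 genotypes, each point 1 clone and each line the mean of 3 clones. Slc3a2, Slc38a2, Slc1a4 and Slc6a9 are lower in both Rps15 genotypes, and Slc38a1 is high in Rpl10 R98S and in P131S clone 20.

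Rpl11+/- stood out for spread between its clones. Slc1a4 RNA was at 35.72 CPM in clone 406, 60.17 in clone 414 and 20.13 in clone 22, Slc6a9 RNA at 19.02, 33.40 and 11.04, and Slc7a11 RNA at 13.46, 34.14 and 12.08. Clone 414 lay within or near the WT range for each of these, and clones 406 and 22 below it. Footprints had the same order, with Slc6a9 at 14.54, 23.57 and 3.558 CPM. Without clone 414 the number of members called in RNA went from 3 to 8 and in footprints from 0 to 3, while the share of all genes called went from 11.8% to 16.7% and from 0.074% to 1.09%. Of the 5 RNA calls gained, the log2 changes were -1.53 for Slc7a11, -1.08 for Slc1a4, -1.05 for Slc6a9, -0.53 for Slc7a5 and -0.40 for Slc7a1. Rpl11 RNA itself was at 1008 CPM in clone 414, the lowest of the 3 clones.

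Translational efficiency is the change in footprints minus the change in RNA. The main edgeR fit, which did not pair the 2 libraries of a clone, called it for 1 member in 1 of the 7 comparisons with WT: Slc38a1 in Rpl10 R98S. The footprint to RNA ratio of Slc38a1 was 1.91, 1.90 and 1.95 in the WT clones and 2.93, 2.89 and 2.71 in Rpl10 R98S, without overlap (log2 change 0.59, adjusted p 0.0432, SE 0.14, with 0.364% of 12074 genes called and 0.141% called higher). The call was lost in each of the 6 fits that left out 1 clone, at 0.55 to 0.62, and was kept with the clone as a block (0.59, adjusted p 0.0167), which uses the shared lysate of the 2 libraries. Slc38a1 footprints alone were higher in all 3 Rpl10 R98S clones (423.6, 447.2 and 386.3 CPM) but missed the threshold (0.44, adjusted p 0.0524, SE 0.11).

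No member was called for translational efficiency by this unpaired edgeR fit in the other 6 genotypes, where 0.0% of genes were called in Rpl5+/- and Rpl11+/-, 0.00828% in Rpl22+/-, 0.0414% in Rpl22-/-, 5.39% in P131S and 4.28% in H137Y. At an unadjusted p under 0.05 there were 0, 0, 1, 1, 3 and 1 members in that order, and DESeq2 and limma voom also called 0 in each. With the clone as a block, 3 members passed in P131S, all higher, where 9.33% of all genes were called and 4.66% called higher: Slc1a4 (0.52, adjusted p 0.0161), Slc38a2 (0.36, adjusted p 0.0454) and Slc7a1 (0.33, adjusted p 0.0471). By limma on the log ratios of each clone, Slc1a4 and Slc7a1 passed and Slc38a2 did not. The ratios behind them were 2.41, 2.00 and 1.98 for Slc1a4 in P131S against 1.62, 1.49 and 1.4 in WT, 4.40, 4.12 and 3.95 for Slc38a2 against 3.09, 3.18 and 3.62, and 1.70, 1.87 and 1.99 for Slc7a1 against 1.45, 1.51 and 1.51. For Slc38a2 the ratio was above all WT clones in Rpl22+/- (4.41, 4.45 and 3.79), Rpl22-/- (4.66, 4.62 and 4.18) and Rpl10 R98S (4.28, 4.43 and 4.39) too, with log2 changes of 0.35, 0.46 and 0.43 and adjusted p of 0.395, 0.382 and 0.184, and with the block the adjusted p was 0.219, 0.113 and 0.0626.

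**Figure D4:**
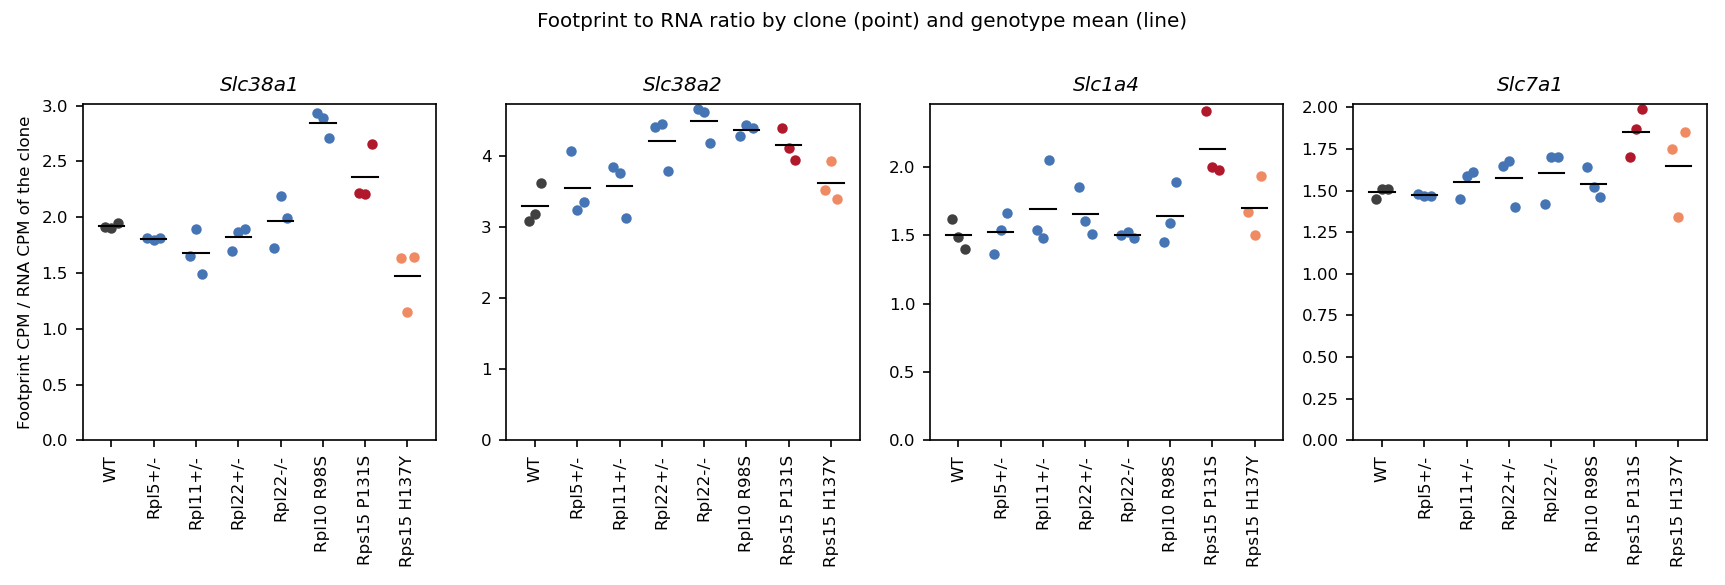
Footprint CPM divided by RNA CPM of the same clone (vertical axis from 0, a separate scale for each gene) for 4 members in 8 genotypes, each point 1 clone and each line the mean of 3 clones. Slc38a1 is highest in Rpl10 R98S (2.71 to 2.93) and lowest in H137Y (1.15 to 1.64).

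In WT cells the members also differed in how many footprints they had for their RNA, a ratio in which gene length largely cancels. Among 12074 genes, Slc38a2 was at the 95.9th percentile, Slc1a5 at the 92.7th, Slc3a2 at the 89.7th and Slc38a1 at the 87.6th. Slc1a4 and Slc7a1 were at the 78.5th and 78.3rd, Slc7a11 at the 69.0th, Slc6a9 at the 50.7th, Slc43a1 at the 41.7th and Slc7a5 at the 37.6th. Footprints cover coding sequence and RNA covers the whole transcript, so a long untranslated region lowers this ratio, and these percentiles are a description.

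The 2 Rps15 mutations were compared directly. In RNA, 3 members differed between P131S and H137Y, where 25.2% of genes were called, 12.6% higher and 12.6% lower in P131S: Slc7a1 was higher in P131S (0.29, adjusted p 0.0342, SE 0.10), as was Slc6a9 (0.78, adjusted p 0.0338), and Slc43a1 was lower (-0.71, adjusted p 7.3e-05, SE 0.11). In footprints, 3 differed where 4.17% of genes were called, 2.23% higher and 1.94% lower: Slc7a1 (0.49, adjusted p 0.0278, SE 0.12), Slc38a1 (0.68, adjusted p 0.00173, SE 0.11) and Slc43a1 (-1.02, adjusted p 0.00233, SE 0.18). For translational efficiency, Slc38a1 alone differed (0.71, adjusted p 0.00647, SE 0.14, with 1.18% of genes called and 0.712% called higher), with ratios of 2.22, 2.21 and 2.66 in P131S and 1.63, 1.15 and 1.64 in H137Y. With library totals the share of all-gene calls that were higher in P131S went from 53.5% to 26.9% in footprints and from 60.1% to 39.0% in translational efficiency. The Slc38a1 call for translational efficiency was lost without H137Y clone 6 (0.56) and with only these 2 groups in the fit. It was kept with the clone as a block (0.68, adjusted p 0.00484). Slc3a2, Slc38a2 and Slc1a4 were called at no level in this comparison by edgeR; their footprint differences were 0.14 (SE 0.13), 0.34 (adjusted p 0.0643, SE 0.10) and 0.70 (adjusted p 0.086, SE 0.23). DESeq2 called the footprint differences of Slc38a2 (0.34, adjusted p 0.0173) and Slc1a4 (0.69, adjusted p 0.0321).

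Set against the mean of the 5 large-subunit genotypes, the mean of the Rps15 genotypes was lower for 6 members in RNA, where 52.6% of genes were called and 25.9% were called lower. These were Slc6a9 (-1.74), Slc1a4 (-1.22), Slc7a1 (-0.52), Slc3a2 (-0.47), Slc38a2 (-0.38) and Slc7a5 (-0.30), with edgeR adjusted p from 8e-08 to 0.013. In footprints the same 6 genes were lower, where 25.4% of genes were called and 12.9% called lower, from -1.73 for Slc6a9 to -0.28 for Slc7a5. The Slc7a5 footprint call (adjusted p 0.0375) was lost in 17 of 21 fits that left out 1 clone (-0.40 to -0.20). Translational efficiency was called for 0 members by edgeR without the clone as a block, DESeq2 and limma voom, with 0 at an unadjusted p under 0.05 and 12.3% of genes called by that edgeR fit. With the clone as a block Slc1a4 (0.27, adjusted p 0.0207) and Slc7a1 (0.19, adjusted p 0.0386) passed, where 17.3% of all genes were called, so the members' share was close to the background. Rpl22-/- and Rpl22+/- differed in 0 members in RNA, in footprints and in translational efficiency by edgeR, DESeq2 and limma voom. In that order, 0.0078%, 0.00617% and 0.0% of genes were called, and 0, 1 and 1 members had an unadjusted p under 0.05. Without Rpl22-/- clone 30 edgeR also called 0 members at each level, with 0.00764%, 0.0117% and 0.00807% of genes called and 0, 2 and 1 members at an unadjusted p under 0.05.

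Ordered by mean RNA level, H137Y was the lowest genotype for Slc7a1, Slc7a5, Slc3a2, Slc38a2, Slc1a4 and Slc6a9, and P131S the second lowest for Slc7a1, Slc3a2, Slc38a2, Slc1a4 and Slc6a9. For Slc7a5 the second lowest was Rpl11+/-. Neighbours in these orders overlapped in most cases. For Slc38a2 the H137Y clones (121.2 to 139.8 CPM) overlapped P131S (137.3 to 151.7), which lay just below its neighbour Rpl22+/- (153.0 to 167.1). Rpl22+/-, Rpl11+/- (141.9 to 183.6) and Rpl22-/- (161.9 to 181.4) overlapped one another. For Slc6a9 the step from H137Y to P131S was the one without overlap at the low end. The upper end of its order, from Rpl10 R98S (27.26 to 29.62) to Rpl22-/- (30.85 to 34.82), differed by less than the spread between clones of Rpl5+/- (25.01 to 37.74).

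Other genes of amino acid supply were read from 3 lists. The first held 32 genes known to respond to amino acid lack, with transporters left out, and 25 were tested in RNA. In H137Y 20 of them were lower and 1 higher (median log2 change -1.10), in P131S 17 lower and 1 higher (-0.67), in Rpl11+/- 8 lower and 1 higher (-0.45) and in Rpl10 R98S 4 lower and 0 higher (-0.28). Over all genes tested in RNA, 41.0% were called in H137Y (20.0% lower) and 47.0% in P131S (23.4% lower). In Rpl11+/- 11.8% were called (6.05% lower), and in Rpl10 R98S 12.9% (6.03% lower). Without clone 414, 21 genes of the list were called in Rpl11+/-, where 16.7% of all genes were. Ddit3, the stress transcription factor CHOP, had an RNA change of -2.94 in H137Y (adjusted p 1.75e-06, SE 0.32), -2.86 in P131S (adjusted p 1.89e-06, SE 0.32) and -1.25 in Rpl10 R98S (adjusted p 0.00962, SE 0.29). Trib3, a pseudokinase induced by ATF4, had -2.57 in H137Y (adjusted p 3.27e-05, SE 0.36) and -2.15 in P131S (adjusted p 0.000107, SE 0.35). Nupr1, a stress-induced chromatin protein, was at 47.7 ± 10.9 CPM of RNA in WT (SD, n = 3), 14.8 ± 6.82 in P131S and 1.671 ± 0.713 in H137Y, with changes of -1.68 (adjusted p 0.0191, SE 0.55) and -4.83 (adjusted p 4e-05, SE 0.68). In footprints, 26 of the list were tested, with 17 lower and 0 higher in H137Y (median -1.13) and 14 lower and 0 higher in P131S (-0.76). Over all genes tested in footprints, 11.7% were called in H137Y (6.44% lower) and 16.7% in P131S (8.28% lower). Translational efficiency of Atf4 itself was lower in P131S (-0.87, adjusted p 0.0195, SE 0.23), the single call of the list at that level against WT. Atf4 RNA was higher there, at 546.7 ± 68.9 CPM (SD, n = 3) against 419.2 ± 1.9 in WT, without overlap. Atf4 footprints were lower, at 90.16 ± 8.18 CPM against 128.1 ± 15.9, so both levels contributed to the lower ratio. In H137Y, Atf4 footprints were lower still, at 65.17 ± 10.9 CPM, with RNA at 355.1 ± 116.0 CPM and overlapping WT. Translational efficiency of Atf4 was not called in H137Y. Which features were counted is not given, and whether this ratio follows the Atf4 coding sequence was not tested.

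The second list held 45 other amino acid transporter genes, of which 16 were tested in RNA. In H137Y 4 were higher and 6 lower (median -0.14), and in P131S 4 higher and 5 lower (-0.28), a share near that of all genes in P131S (47.0%), and above it in H137Y (41.0%). Among them Slc38a9, a lysosomal arginine sensor, was lower in P131S (-0.79, adjusted p 1.8e-05, SE 0.12) and in H137Y (-0.41, adjusted p 0.00692, SE 0.12), Slc43a2, a relative of Slc43a1, was lower in P131S (-0.66, adjusted p 0.00405, SE 0.17) and H137Y (-0.71, adjusted p 0.00263, SE 0.17), and Slc7a7, a light chain that pairs with Slc3a2, was lower in H137Y (-1.22, adjusted p 0.00301, SE 0.30). Footprints of Slc7a7 were lower in P131S (-0.83, adjusted p 0.00692, SE 0.20) and H137Y (-0.87, adjusted p 0.00756, SE 0.20). Footprints of Slc36a2, a proton-coupled carrier of small amino acids, were higher in P131S, at 29.35 ± 3.29 CPM (SD, n = 3) against 13.98 ± 3.77 in WT (1.07, adjusted p 0.00122, SE 0.20 by edgeR). The footprint to RNA change of Slc6a6, the taurine transporter, was higher in P131S (0.59, adjusted p 0.00373, SE 0.13) and H137Y (0.42, adjusted p 0.0474, SE 0.13).

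The third list held 31 genes of amino acid sensing and mTORC1 control, of which 29 were tested in RNA. Here 6 were higher and 8 lower in P131S (median -0.02) and 5 higher and 9 lower in H137Y (-0.05). Both directions were present, and the share called was near that of all genes (47.0% and 41.0%). Bmt2, a methyltransferase linked to methionine sensing, was lower in P131S (-1.05, adjusted p 5.9e-05, SE 0.17) and H137Y (-0.83, adjusted p 0.000643, SE 0.17). It was also lower in Rpl11+/- (-0.70), Rpl22-/- (-0.68) and Rpl10 R98S (-0.70), by edgeR with adjusted p of 0.0118, 0.0215 and 0.0107. Impact, an inhibitor of the kinase GCN2, was higher in P131S (0.56, adjusted p 0.0122, SE 0.18) and H137Y (0.71, adjusted p 0.00276, SE 0.18). It was also higher in Rpl11+/- (0.59, adjusted p 0.0323) and Rpl10 R98S (0.63, adjusted p 0.0216). Myc RNA was lower in P131S (-0.97, adjusted p 0.000263, SE 0.18) and H137Y (-0.48, adjusted p 0.0389, SE 0.18). Lower Myc RNA was also called in Rpl22+/- (-0.69, adjusted p 0.0371) and Rpl22-/- (-0.71, adjusted p 0.0237). Castor1, an arginine sensor, was higher in P131S (1.66, adjusted p 0.0134, SE 0.51). In footprints of this list, with 29 tested, 3 were higher and 2 lower in P131S and 2 higher and 0 lower in H137Y. The share called was near that of all genes in P131S (16.7%) and below it in H137Y (11.7%). Gcn1, the co-activator of GCN2, had more footprints in P131S (0.59, adjusted p 0.00165, SE 0.12), and Wdr24, a GATOR2 subunit, had fewer (-0.75, adjusted p 0.0141, SE 0.20).

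**Figure D5:**
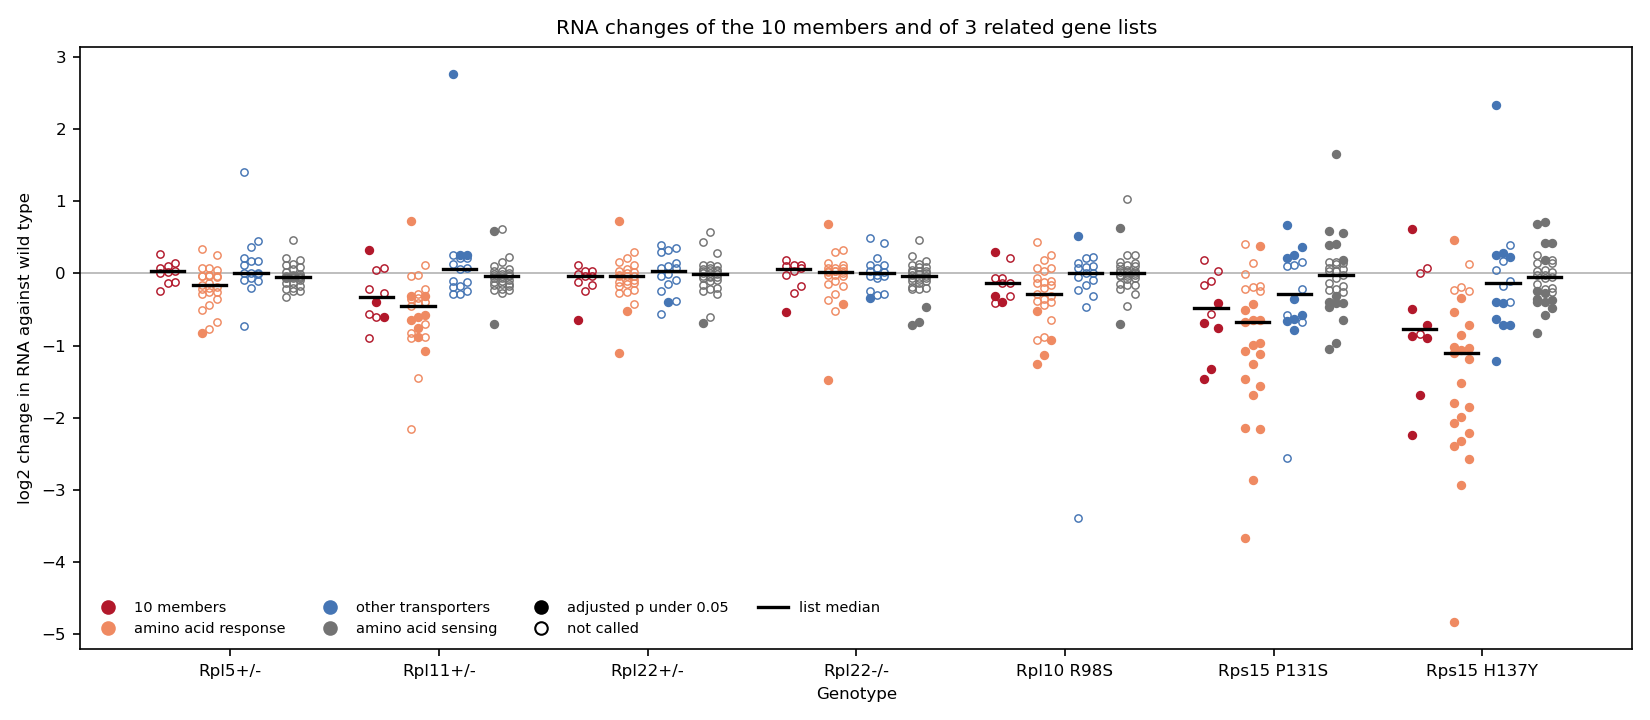
Log2 change in RNA against WT (vertical axis) of the 10 members and of the tested genes of 3 lists in 7 mutant genotypes, each point 1 gene, filled where the adjusted p is under 0.05, with a line at each median. In H137Y the medians are -0.77 for the members, -1.10 for the amino acid response genes, -0.14 for the other transporters and -0.05 for the sensing genes.

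Slc6a9 and Slc1a4 had the widest range of genotype means among the members, and the genes most like them across the 24 RNA libraries were found by Pearson correlation of log2 CPM. Closest to Slc6a9 were Pck2 (r 0.986), Pycr1 (0.984) and Gpt2 (0.984), and closest to Slc1a4 were Pck2 (0.979), Clic4 (0.978) and Sars (0.975). Pck2 encodes the mitochondrial phosphoenolpyruvate carboxykinase, Pycr1 an enzyme of proline synthesis, Gpt2 an alanine aminotransferase and Sars the cytosolic seryl-tRNA synthetase. Pck2 RNA was at 222.4 ± 5.9 CPM (SD, n = 3) in WT, 83.05 ± 8.91 in P131S and 48.63 ± 1.68 in H137Y. The libraries share genotypes and the clone differences of Rpl11+/-, so these correlations carry no test.

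Several lists of blood cell markers differed between the Rps15 genotypes and WT. The summed RNA of 6 granulocyte markers was 40.3 to 140 CPM in WT clones, 502 to 2460 in P131S and 471 to 2510 in H137Y, against 26.8 to 370 in the large-subunit genotypes. S100a8 and S100a9 reached 982 and 1460 CPM, whereas Ms4a3 reached 97.1, Prtn3 58.1 and Mpo 15.5, and Elane was under 1 CPM in every genotype. A list of 6 markers of interleukin 3 dependent cells summed to 937 to 1100 CPM in WT, 2340 to 2960 in P131S and 1510 to 2630 in H137Y, with 958 to 2040 in the large-subunit genotypes. For 3 macrophage markers the sum was 145 to 172 in WT, 80.0 to 105 in P131S and 65.4 to 136 in H137Y. The sum of 4 erythroid markers was 36.5 to 60.7 CPM in WT, 25.3 to 54.5 in P131S and 77.6 to 305 in H137Y, with 78.9 to 85.6 in Rpl11+/- and 55.5 to 103 in Rpl5+/-. Their part in the transporter results was not tested. In libraries of whole cultures, fewer cells of a type and less RNA per cell cannot be told apart.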

How the data were processed

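The deposited table held estimated counts per gene for 48 libraries, 88.5% of them whole numbers. The submitters' processing notes name STAR 2.6.1d, Salmon 1.4.0, DESeq2 1.30 and GRCm38, without their order. How the authors counted footprints, whether strand was used, and which features were counted are not given in the sources used here. Counts were rounded and fitted with edgeR 4.0.16 (R 4.3.3; quasi-likelihood test, TMM scaling, filterByExpr with a minimum count of 10 and total of 15), with all 24 libraries of an assay in 1 fit. For translational efficiency, an assay by genotype interaction was tested over all 48 libraries. P-values were adjusted over all genes tested in each comparison, and 10 comparisons were made at each of 3 levels. Standard errors are the log2 change divided by the root of F. The main edgeR fit of each level was run on simulated counts with known changes placed in Rps15 P131S. RNA and footprint counts of a clone were simulated independently there. The alternatives named below, the motif search, the likeness rule and the clone pairing were not run on simulated counts.

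Members and lists were chosen with earlier results of these data known. From each list, genes were named if called against WT, at most 4 per list and level by size of change; not all of these are described. The likeness rule took the 2 members with the widest range in RNA and 3 genes each. Deviations from the genotype mean correlated at 0.15 to 0.548 between RNA and footprints of the same clone, over 12074 genes. The clone number thus pairs the 2 assays, which the divided lysate also states. Between different clones the values were -0.452 to -0.024. Deviations from a mean of 3 clones cancel out, so these negative values follow from the positive ones and add no support. No clone number pairs genotypes. Alternatives were DESeq2 1.42.0, limma voom (3.58.1), other scalings and filters, only the groups compared, leaving out each clone, and for translational efficiency a clone block or per-clone log ratios.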

Additional observations from a re-analysis of the deposited data

Results flagged for a closer look

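The 7 differences below between the Rps15 mutations passed a test of the difference itself, which is P131S minus H137Y on the log2 scale by edgeR. In RNA these were Slc7a1 at 0.29 (higher in P131S), Slc6a9 at 0.78 (higher in P131S) and Slc43a1 at -0.71 (higher in H137Y). Of all genes, 25.2% were called there, close to the share of the members, so the RNA count is not read as a result about them. In footprints they were Slc7a1 at 0.49, Slc38a1 at 0.68 and Slc43a1 at -1.02, where 4.17% of all genes were called. For translational efficiency it was Slc38a1 at 0.71, where 1.18% were called. The Slc43a1 difference kept its call at both levels in all 6 fits that left out 1 clone, and the Slc38a1 footprint difference did so too (0.51 to 0.81). Slc6a9 lost its call in 5 of 6 such fits (0.64 to 0.88), Slc7a1 in 3 of 6 in RNA (0.19 to 0.42) and in 4 of 6 in footprints (0.35 to 0.60). With only these 2 groups in the fit, Slc43a1 in RNA was the only one of the 7 differences that kept its call.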

How the results depend on the processing

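No member changed direction where it was called. Outside the fits that left out a clone, 341 checks of a member's call kept it and 20 lost it. Among fits that left out 1 clone 426 kept it and 60 lost it. This tally pools 21 such fits per call of the Rps15 against large-subunit comparison with 6 per call of the others. In the former, Slc7a5 footprints alone lost a call, in 17 fits, so the pooled share kept is higher than for the comparisons of 2 genotypes. The number of members called changed by more than 1.5 times, or from or to 0, as follows, with some smaller changes; the causes were not tested. Smaller changes in footprints included 8 instead of 6 in H137Y by DESeq2, library totals and only the groups compared, 7 by limma voom and with no filter, and 4 instead of 5 in P131S by limma voom, library totals, no filter and only the groups compared. With only the groups compared, fits gave 2 instead of 0 in Rpl5+/- RNA, 1 instead of 3 in Rpl11+/- RNA, 2 instead of 1 in Rpl22+/- and Rpl22-/- RNA, 2 instead of 0 in Rpl10 R98S footprints, 2 instead of 1 in Rpl10 R98S translational efficiency, and, for P131S against H137Y, 1 instead of 3 in RNA, 0 instead of 3 in footprints and 0 instead of 1 in translational efficiency. Over all genes, RNA calls in these fits went from 133 to 1868 in Rpl5+/- and from 1509 to 855 in Rpl11+/-. They went from 500 to 1248 in Rpl22+/- RNA and from 675 to 1436 in Rpl22-/- RNA. Rpl10 R98S went from 263 to 689 in footprints and from 44 to 255 in translational efficiency. P131S against H137Y went from 3234 to 378 in RNA, 677 to 34 in footprints and 143 to 3 in translational efficiency. The member counts are therefore not read as a result. DESeq2 gave 1 instead of 0 in footprints of Rpl11+/- and Rpl10 R98S and 5 instead of 3 in footprints of P131S against H137Y. All-gene footprint calls by DESeq2 went from 12 to 240, from 263 to 738 and from 677 to 1309 in that order. Limma voom gave 5 instead of 3 in Rpl11+/- RNA, 1 instead of 0 in footprints of Rpl11+/- and Rpl10 R98S and 2 instead of 3 in RNA of P131S against H137Y. All-gene calls by limma voom were 1597, 37, 396 and 3270 in that order, against 1509, 12, 263 and 3234. Library totals gave 2 in Rpl22-/- RNA and 2 in footprints of P131S against H137Y. No filter gave 1 in Rpl11+/- footprints, 2 in Rpl11+/- RNA, 2 in RNA of P131S against H137Y and 0 in Rpl10 R98S translational efficiency, where relative log expression size factors also gave 0. A count minimum of 50 gave 1 in Rpl10 R98S footprints. The replicate block by clone gave 3 members in P131S translational efficiency and 2 in that of the Rps15 against the large-subunit genotypes, both 0 without the block, and per-clone log ratios gave 2 and 2; the block changed no other count of members.

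Leaving out 1 clone gave 1 to 8 members in Rpl11+/- RNA, 0 to 3 in its footprints (3 without clone 414), 1 to 3 in Rpl10 R98S RNA, 2 to 5 in P131S footprints, 0 in Rpl10 R98S translational efficiency, and for P131S against H137Y 1 to 3 in RNA, 2 to 4 in footprints and 0 to 1 in translational efficiency. Among the members, Slc6a9 and Slc43a1 had the lowest footprint counts, 161 and 222 in their lowest libraries. The part of depth in their results was not tested.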
